A study of Homo sapiens with 4 samples.

Results

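Translation initiation factor genes were examined for BRCA2 chromatin sites in hTert-HME1, a telomerase-immortalized line of human mammary epithelium harvested in log-phase growth. BRCA2 is a protein of DNA double-strand break repair. A BRCA2 antibody was used on formaldehyde-crosslinked chromatin, and 2 ChIP libraries were compared with 2 input libraries of the same untreated line. The genes were those of the site table whose symbol begins with EIF and a digit from 1 to 6, without the eIF2 kinases. The rule took 40 symbols, which were paired with 61 of the 15131 sites in 63 of the 23317 site-gene pairings. Of the 40 symbols, 36 were protein-coding genes, out of 52 protein-coding genes that RefSeq (GRCh38.p14) lists under such a symbol. The other 4 were pseudogenes or an intronic transcript.

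Initiation factors bring the ribosome to the start codon of an mRNA. eIF4 proteins bind the 5′ cap and unwind the leader, eIF3 and eIF2 with the initiator tRNA load the small subunit, eIF1 and eIF1A govern start codon choice, and eIF5 and eIF5B release eIF2 and join the large subunit. Phosphorylated eIF2 blocks its own exchange factor eIF2B, and 4E-binding proteins hold eIF4E away from eIF4G, so that stress and growth signals act on both steps.

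All folds, concentrations, distances and FDR values below come from the authors' deposited table. A concentration is a log2 mean of normalized reads over the libraries of a group, and the log2 fold is ChIP minus input. The table holds no value per library, so neither the depth nor the spread between replicates is known here, and the FDR of the authors is the only measure of error for a site. The labels do not state that the libraries of a group came from separate cultures. Enrichment is over input alone, since no library of a control antibody was analysed, and what the precipitation pulls down without specificity cannot be told apart. Coordinates of sites follow hg19.

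Initiation factor genes were paired with a site more often than protein-coding genes in general. Of the 52 coding genes, 36 had a site (27 had 1, 5 had 2, 3 had 3 and EIF2B5 had 13), or 69.2% (95% Wilson interval 55.7 to 80.1), where 44.3% of all 20056 protein-coding genes did. A site over the listed start, or within 1 kb of it by the listed distance, is called a promoter site, and 30 of the 52 genes had one (57.7%, interval 44.2 to 70.1), beside 23.5% of all protein-coding genes. The listed distance runs from the site's lower coordinate. An upstream site is thus measured from its far edge on the plus strand and its near edge on the minus strand. By the shortest distance, 31 of the 52 genes and 32 of the 61 sites qualified, a count not made over all genes. The 45 canonical factors alone gave 30 genes with a site and 24 with a promoter site. Those intervals cover counting error only, genes are not replicates, and the genes were chosen with earlier results known, so no test was made of the list.

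**Figure D1:**
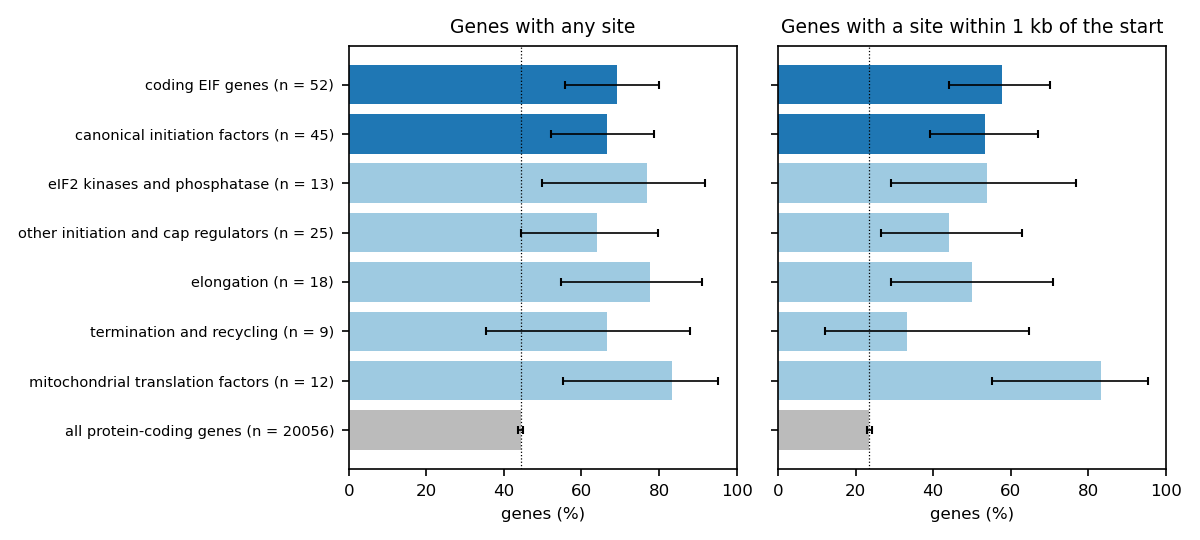
Share of genes (%, x axis) with any site (left) and with a promoter site (right), by gene list (y axis, with the number of genes); bars are shares, whiskers 95% Wilson intervals, and the dotted line is the share over all protein-coding genes. The coding EIF genes stand at 69.2% and 57.7%, beside 44.3% and 23.5% over all protein-coding genes.

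The sites themselves were about as strong as those of the rest of the table. Their median log2 fold was 1.22, with quartiles of 0.87 and 1.60, beside a median of 1.15 over all sites. Of the 61 sites, 8 (13.1%) had a log2 fold of 2 or more, where 10.9% of all sites did. By gene, 8 of the 52 had such a site, or 15.4% (interval 8.01 to 27.5), beside 7.82% of all protein-coding genes. Those shares also count genes without any site, which were fewer in the family. Among genes with a site, the counts were 8 of 36 and 1569 of 8886. An FDR under 0.001 was held by 31 of the 61 (50.8%), beside 44.6% of all sites. The table lists only sites with an FDR under 0.05, so the largest FDR of the 61, 0.0461, follows from that limit. A gene without a site is one with none listed at that limit. None of the 61 lay below input, and over all sites the lower quartile of the log2 fold was 0.93.

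**Figure D2:**
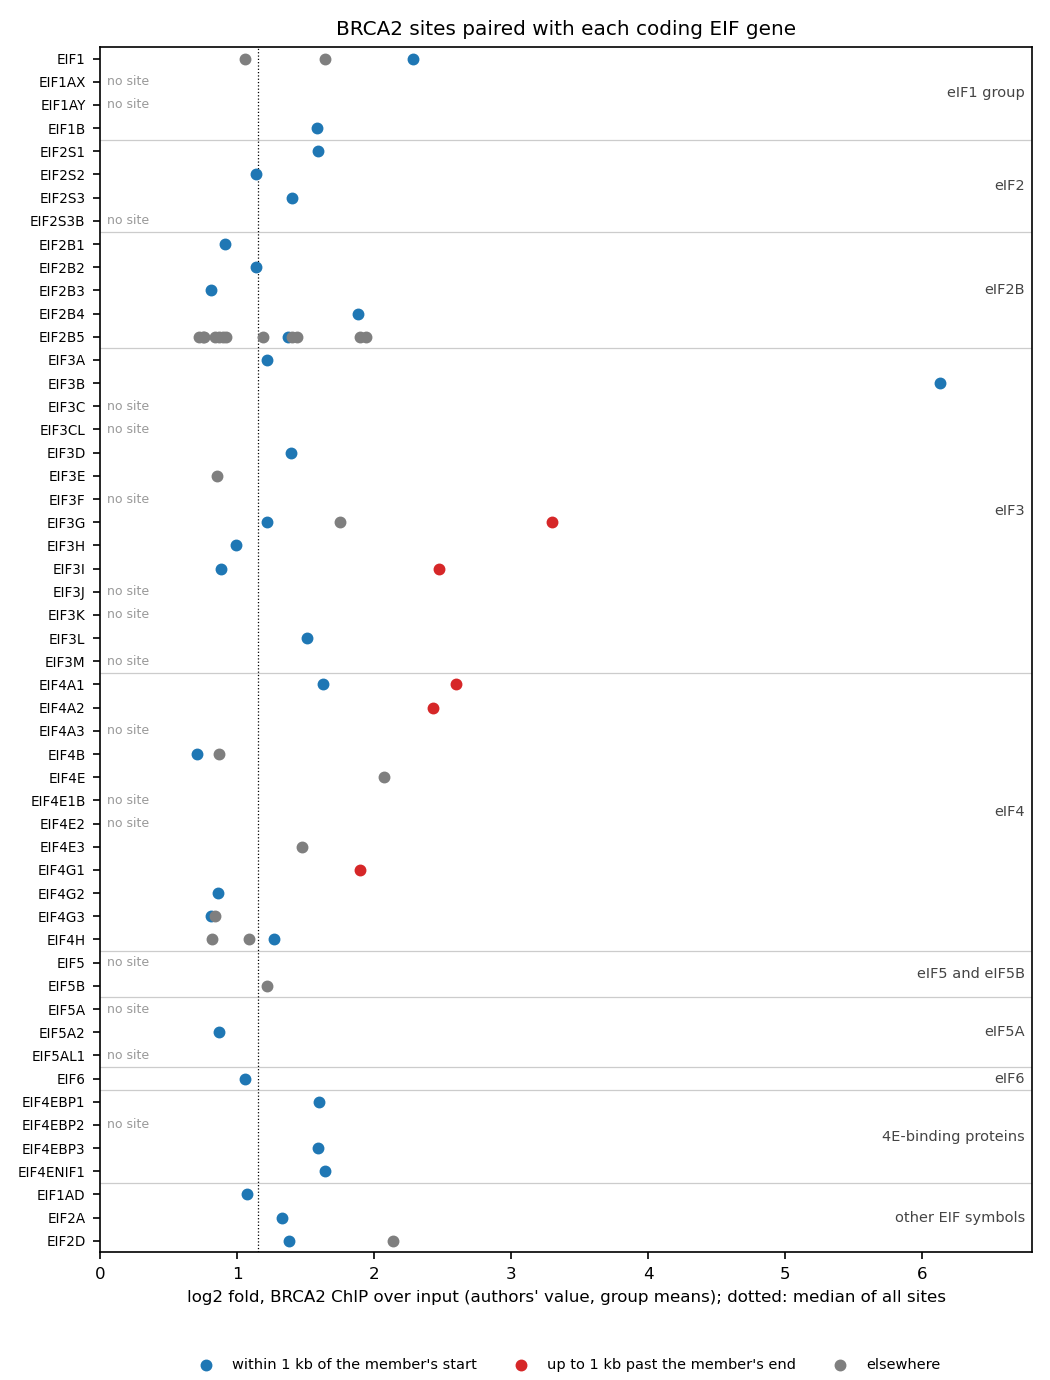
Log2 fold of BRCA2 ChIP over input (x axis, group means) of every site paired with each coding EIF gene (y axis, grouped by complex); each point is 1 pairing, coloured by position (blue within 1 kb of the gene's start, red up to 1 kb past its end, grey elsewhere), and the dotted line is the median of all sites, 1.15. EIF3B stands alone at 6.13, and the 5 sites just past gene ends lie between 1.90 and 3.30. Blue follows the listed distance, so a site whose nearer edge is within 1 kb can be grey, as at EIF5B.

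EIF3B, which encodes a scaffold subunit of eIF3, carried the strongest site of the family. The site at chr7:2394097-2394596 had a ChIP concentration of 11.74 and an input concentration of 5.60. Its log2 fold of 6.13, a 70.0-fold enrichment with an FDR of 7.58e-167, ranked 16th of 15131 sites by fold, 8th by ChIP concentration and 7th by FDR. It lay inside EIF3B, 376 bp from the listed start, and 144 bp upstream of the start of SNX8, a sorting nexin gene on the opposite strand. The SNX8 start is the nearer, and to which gene the site belongs cannot be told apart from position. The next largest promoter fold of the family was far smaller, at EIF1.

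EIF1, a factor of start codon selection, had a site at chr17:39844594-39845093, 44 bp upstream of its start. ChIP and input concentrations there were 8.29 and 6.01, so that the log2 fold was 2.28 (FDR 1.03e-14). These were the only promoter sites of a member at a log2 fold of 2 or more, 2 of 30 (6.67%), where 14.4% of all promoter sites reached it. The median over the 30 was 1.30, with quartiles of 1.01 and 1.59, and 1.26 over all 5042 promoter sites. The lowest were EIF4B at 0.71, and EIF2B3 and EIF4G3 at 0.81.

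Reference promoters are shown for genes across that range, so that promoters of genes with strong and weak promoter sites can be compared. They are the 3 highest and 2 lowest folds among promoter sites of genes with a single sequence in the table, and EIF2A as the highest of these with an ETS motif. Each runs from 250 bases before to 50 after the RefSeq start on GRCh38.p14, 5′ to 3′ on the gene's strand, and capitals mark matches to the motifs searched. The site positions are on hg19 and were not carried over, so whether a site lies in its sequence was not determined. By the listed distances, the EIF3B and EIF4B sites began 376 and 155 bp inside the gene, and the EIF4ENIF1 site 317 bp upstream. Such sites would fall outside these sequences if the listed and RefSeq starts were the same.
EIF3B, chr7:2354577-2354876, plus strand: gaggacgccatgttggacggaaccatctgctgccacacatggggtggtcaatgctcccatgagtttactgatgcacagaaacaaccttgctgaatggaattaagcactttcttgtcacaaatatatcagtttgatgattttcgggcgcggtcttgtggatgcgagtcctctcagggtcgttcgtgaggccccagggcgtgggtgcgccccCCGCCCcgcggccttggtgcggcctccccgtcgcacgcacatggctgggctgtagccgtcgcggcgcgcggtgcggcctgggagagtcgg
EIF1, chr17:41688635-41688934, plus strand: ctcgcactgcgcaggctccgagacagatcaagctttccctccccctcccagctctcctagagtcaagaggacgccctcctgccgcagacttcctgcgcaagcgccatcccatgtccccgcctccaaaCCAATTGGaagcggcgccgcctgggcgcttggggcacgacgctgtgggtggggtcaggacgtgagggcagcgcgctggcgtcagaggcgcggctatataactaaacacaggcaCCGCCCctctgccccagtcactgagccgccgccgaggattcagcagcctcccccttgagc
EIF4ENIF1, chr22:31489793-31490092, minus strand: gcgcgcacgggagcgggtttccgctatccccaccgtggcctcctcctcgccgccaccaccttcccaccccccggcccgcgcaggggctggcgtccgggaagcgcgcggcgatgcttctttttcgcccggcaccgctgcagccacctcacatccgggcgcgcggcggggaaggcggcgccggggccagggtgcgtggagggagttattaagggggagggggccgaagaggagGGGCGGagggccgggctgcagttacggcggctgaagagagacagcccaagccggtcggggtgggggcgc
EIF2A, chr3:150546537-150546836, plus strand: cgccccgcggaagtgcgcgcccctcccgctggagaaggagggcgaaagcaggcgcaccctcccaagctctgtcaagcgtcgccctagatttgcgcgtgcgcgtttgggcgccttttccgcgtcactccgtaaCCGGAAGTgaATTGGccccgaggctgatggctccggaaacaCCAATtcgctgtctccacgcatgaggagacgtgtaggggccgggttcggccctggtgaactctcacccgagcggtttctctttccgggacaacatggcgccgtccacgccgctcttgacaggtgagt
EIF2B3, chr1:44986546-44986845, minus strand: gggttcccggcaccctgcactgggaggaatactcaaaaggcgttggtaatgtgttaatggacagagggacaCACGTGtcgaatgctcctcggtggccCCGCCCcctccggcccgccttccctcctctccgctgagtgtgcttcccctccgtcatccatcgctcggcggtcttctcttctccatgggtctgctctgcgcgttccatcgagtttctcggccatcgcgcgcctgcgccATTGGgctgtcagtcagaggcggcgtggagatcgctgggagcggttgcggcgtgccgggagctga
EIF4B, chr12:53006206-53006505, plus strand: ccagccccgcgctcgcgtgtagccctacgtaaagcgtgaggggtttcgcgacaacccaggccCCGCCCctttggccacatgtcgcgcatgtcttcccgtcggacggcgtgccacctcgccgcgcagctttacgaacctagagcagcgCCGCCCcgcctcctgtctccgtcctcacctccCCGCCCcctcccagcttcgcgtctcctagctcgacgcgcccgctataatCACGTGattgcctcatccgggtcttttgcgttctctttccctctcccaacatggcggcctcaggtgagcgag

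A GC box was the match these 6 promoters most often held, in 5 of them and not in EIF2A. In the EIF3B promoter 1 GC box was the only match, that of EIF1 had a GC box and 2 overlapping CCAAT boxes, and that of EIF4ENIF1 a GC box. EIF2A had 1 ETS motif and 2 CCAAT boxes, EIF2B3 an E-box, a GC box and a CCAAT box, and EIF4B an E-box and 3 GC boxes. The GC content of the 6 ran from 61.0% in EIF3B to 74.7% in EIF4ENIF1.

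The ETS letters CCGGAAGT were found in 10 of the 60 promoter sequences available for 44 of the coding members, or 16.7%, in 5.34% of the 22199 promoters of coding genes and in 4.14% of all 35116 promoters. Sequences of genes with a promoter site held it in 8 of 28, those of EIF1AD, EIF2A, EIF2B1, EIF2B2, EIF3I, EIF5A2 and EIF6. Among the 32 sequences of genes with none, it was in 2, of EIF4E2 and EIF5A. Over all coding genes the shares were 11.2% with a promoter site and 3.41% without. The E-box letters CACGTG, bound by MYC, were in 18.3% of the 60, in 8.34% of coding promoters and in 7.26% of all.

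The shares for the other motifs are given for the 60, for coding promoters and for all promoters, in that order. They were 70.0%, 56.3% and 44.95% for the GC box, written GGGCGG, and 35.0%, 34.7% and 34.6% for the CCAAT box, written CCAAT. The YY1 letters AAGATGGC had 6.67%, 3.53% and 2.89%, and the AP-1 letters TGANTCA had 6.67%, 6.15% and 7.71%. The TATA letters TATAAA had 3.33%, 9.47% and 11.5%. With and without a promoter site, members had 67.9% and 71.9% for the GC box, and all coding genes 65.7% and 53.2%. For YY1 the shares were 3.57% and 9.38% in members, and 6.26% and 2.63% in coding genes. For CCAAT they were 35.7% and 34.4%, and 37.5% and 33.8%. AP-1 was in 0 of 28 and 4 of 32 member sequences (5.03% and 6.53% of coding). TATA was in 1 of 28 and 1 of 32 (5.73% and 10.7%), and the E-box in 6 of 28 and 5 of 32 (9.95% and 7.80%). None of the 60 held the CRE letters TGACGTCA (2.26% of coding and 1.85% of all promoters), the E2F letters TTTCCCGC (1.99% and 1.63%), or the NRF1 motif, which is GCATGC with GC on both sides (1.5% and 1.24%). Both strands were searched, motifs could overlap, and some of the 60 are alternative starts of 1 gene that share bases, as in EIF5A. Median GC content was 64.7% with a promoter site and 65.2% without.

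Sites just past the ends of initiation factor genes were the strongest group by position, with a median log2 fold of 2.47, beside 1.30 at promoters of members and 0.99 elsewhere. The authors' deposited table placed 5 sites up to 1 kb past a member's end, and their log2 folds were 3.30, 2.60, 2.47, 2.43 and 1.90. Of these 4 reached a log2 fold of 2, beside 31.1% of the 502 sites that lie up to 1 kb past the end of a coding gene. The median over those 502 was 1.54. Across the family, 4 of the 8 strong sites lay past the end of a member and 2 at a member's promoter. With starts and ends of any gene counted, as for the whole table, 5 of the 8 lay past a coding gene's end and 4 at a promoter (50%), and a site could be both. All strong sites had 9.44% past an end and 43.8% at promoters. These are small counts, and whether they differ from the table was not tested.

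EIF3G, an RNA-binding subunit of eIF3, had the highest of these, at chr19:10224764-10225263 and 430 bp past its end. The ChIP concentration was 7.74 and the input concentration 4.44, with an FDR of 2.88e-22. The site also lay inside PPAN, 151 bp from that gene's nearest boundary, and inside P2RY11. Its own promoter site was weaker, at a log2 fold of 1.22, and another site 15524 bp upstream, inside DNMT1, had 1.75.

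EIF4A1 encodes the main RNA helicase of the cap-binding complex. A site 144 bp past its end, at chr17:7482467-7482966, had concentrations of 8.71 in ChIP and 6.12 in input, which is a log2 fold of 2.60 (FDR 7.59e-18). That site covers the start of CD68, a gene of lysosomes and macrophages. At its own start EIF4A1 had 1.63, with concentrations of 7.67 and 6.03. For its close relative EIF4A2 the table listed a single site, 415 bp past the end at chr3:186508104-186508603, with concentrations of 7.85 and 5.42 and a log2 fold of 2.43. The EIF4A2 site lay inside RFC4, a clamp loader gene on the opposite strand, 435 bp from its end.

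EIF3I, a WD-repeat subunit of eIF3, had a log2 fold of 2.47 at a site 918 bp past its end, where input was low (ChIP 6.64, input 4.17). Its promoter site, shared with TMEM234, had 0.88. EIF4G1, the scaffold that joins eIF4E, eIF4A and eIF3, had 1 site, 145 bp past its end at chr3:184053291-184053790 and over the start of FAM131A, with concentrations of 7.09 and 5.18 and a log2 fold of 1.90. Thus the sites past EIF4A1 and EIF4G1 are promoter sites of the next gene, and to which gene a site belongs cannot be told apart from position.

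**Figure D3:**
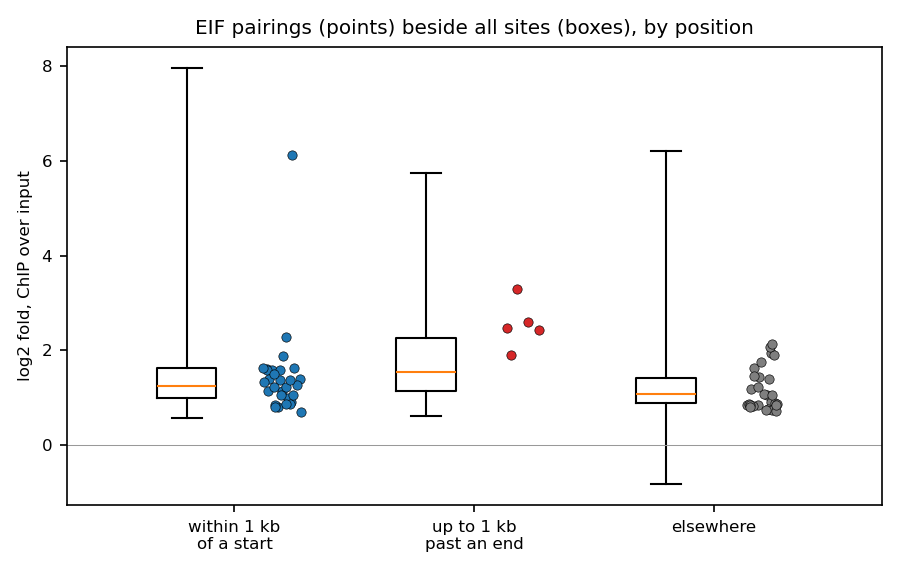
Log2 fold of ChIP over input (y axis) by position (x axis); boxes give the quartiles, median and full range over all sites, classed by any gene's start or coding gene's end, and points are the 63 pairings of EIF genes, classed by the member's own start or end, where a site paired with 2 of them appears as 2 points. The 5 points past gene ends run from 1.90 to 3.30, and the promoter points from 0.71 to 2.28 apart from EIF3B at 6.13.

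The 3 eIF2 genes with a site had promoter folds from 1.14 to 1.59, and the 2 eIF1 genes with one had 1.58 and 2.28. The subunits of eIF2, the GTPase that carries the initiator tRNA, each had 1 promoter site and no other: EIF2S1, the subunit phosphorylated under stress, at 1.59, EIF2S3, the GTP-binding subunit, at 1.40, and EIF2S2 at 1.14. The EIF2S1 site rested on the lowest ChIP concentration of the family, 5.65, and an input of 4.06, on chromosome 14, where the median input of all sites was 5.03 and not the 5.42 of the whole table. EIF1B, a close relative of EIF1, had 1.58 over its start. A further pair of sites was paired with EIF1 at 9463 and 21418 bp upstream, with 1.64 and 1.06, and all 3 EIF1 sites also lay inside the listed span of JUP, a junction protein gene on the opposite strand. EIF1AX, EIF1AY and the retrogene EIF2S3B had no site. EIF1AY is on chromosome Y, where no site was listed for any gene, and it is still counted among the coding genes.

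All 5 genes of eIF2B, the exchange factor of eIF2, had a promoter site. EIF2B4, of the regulatory core, had the highest, 1.88 with an FDR of 6.74e-09, at ChIP and input concentrations of 7.30 and 5.42. EIF2B5, the catalytic subunit, had 1.37 at a site 31 bp inside its start, and EIF2B2 had 1.14. EIF2B1 and EIF2B3 were at 0.91 and 0.81, with FDR values of 0.00774 and 0.0129.

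EIF2B5 was listed with 13 sites, but 11 of them lay far from its start. The table lists this gene from 183852826 to 184402546 on chromosome 3, a span of 549721 bp, and calls sites in that span inside. In RefSeq, the next coding gene after EIF2B5 is DVL3, and 10 coding genes lie between EIF2B5 and EIF4G1. Those 11 sites were over 20 kb from the listed start, and 5 of them were promoter sites of other genes. The highest, 1.94, lay 108 bp inside DVL3, a Wnt signalling gene. Others were at ABCF3 (1.19 and 0.90), at ALG3 and ECE2 (1.40), and at FAM131A (1.90). Within reach of the EIF2B5 start were the promoter site at 1.37 and one 514 bp upstream at 0.92. Without the 11 distant pairings, the family had 52 sites and a median log2 fold of 1.25.

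**Figure D4:**
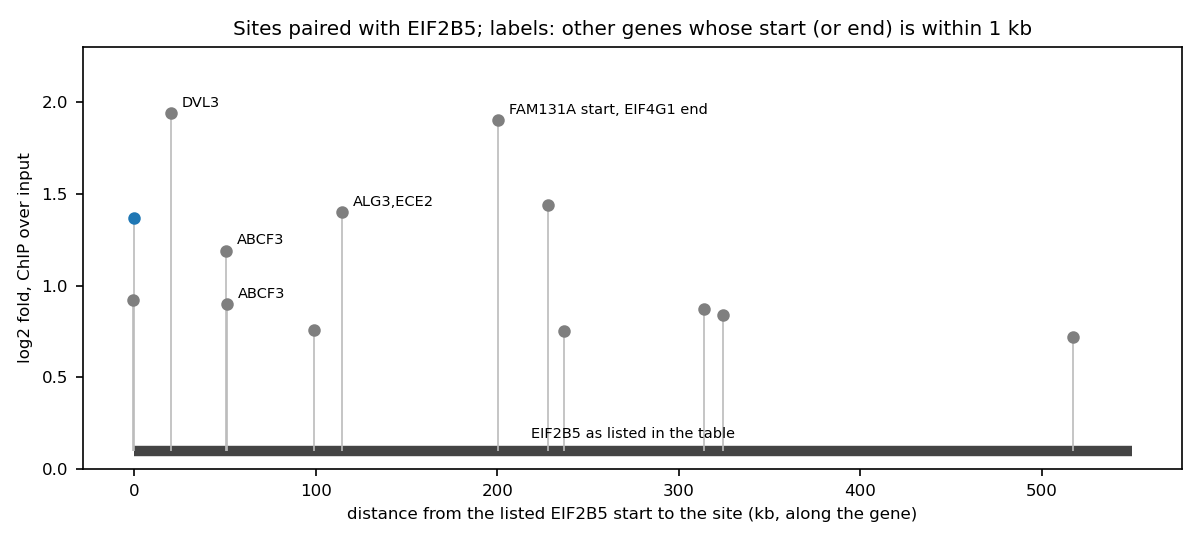
Log2 fold of ChIP over input (y axis) of the 13 sites paired with EIF2B5, by distance from its listed start (kb, x axis); the blue point is the EIF2B5 promoter site, the bar is the gene as the table lists it, and labels name other genes whose start lies within 1 kb. Of the 11 sites over 20 kb away, 5 carry the name of another gene's start.

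The eIF3 complex was split between genes with and without sites. Of 14 coding genes, 8 had a site and 7 a promoter site. Besides EIF3B, promoter folds ran from 0.88 to 1.51. EIF3L had 1.51, 423 bp inside the gene at a start shared with ANKRD54, EIF3D, a cap-binding subunit, had 1.39, EIF3A, the largest subunit, had 1.22, and EIF3H had 0.99. EIF3E had 0.85 at a site listed as inside the gene, 186651 bp from the listed start and 47466 bp from the end. Whether that site lies at an inner start of the gene was not determined. EIF3C, EIF3CL, EIF3F, EIF3J, EIF3K and EIF3M had none. EIF3C and EIF3CL are near-identical copies, and how reads that match both were treated is not given in the sources used here.

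In the eIF4 group 9 of 12 genes had a site but 5 had a promoter site, and those 5 had the lowest median promoter fold of the multi-gene complexes, 0.86. They were EIF4A1 (1.63), EIF4H (1.27), EIF4G2 (0.86), EIF4G3 (0.81) and EIF4B (0.71). EIF4B and EIF4H stimulate the helicase, and EIF4G2 is a scaffold without the eIF4E-binding site. EIF4E, the cap-binding protein itself, had a single site 2010 bp into the gene, where the log2 fold was 2.07 (FDR 5.83e-05). Its input concentration of 3.71 was the lowest of the family, on chromosome 4, where the median input of all sites was 4.51, and its ChIP concentration was 5.78. That site was also a promoter site of the opposite-strand transcript RP11-571L19.7. EIF4E3 had 1.47 deep inside the gene. Weaker sites away from the start were listed for EIF4B (0.87, 24888 bp upstream), EIF4G3 (0.84, inside) and EIF4H (1.09 inside and 0.82 at 40077 bp upstream). EIF4A3, EIF4E1B and EIF4E2 had none.

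Of the 4 genes for 4E-binding proteins, 3 had a promoter site. EIF4EBP1 and EIF4EBP3, which block eIF4E, had 1.60 and 1.59 at promoter sites, and EIF4ENIF1, which carries eIF4E into the nucleus, had 1.64. EIF4EBP2 had no site. The deposited means give no spread, so no statement can be made on how far such values differ.

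Of the 6 genes of eIF5, eIF5B, eIF5A and eIF6, 3 had a site. EIF5B, the subunit-joining GTPase, had 1.22 at a site whose nearer edge was 584 bp upstream and whose listed distance was -1083 bp, just outside the promoter window. EIF6, which keeps free large subunits apart from small ones, had 1.06 over its start. EIF5A2, a relative of the hypusine-bearing eIF5A, had 0.87. EIF5, the GTPase activator, EIF5A and EIF5AL1 had none. EIF2A and EIF2D, which can deliver tRNA without eIF2, had 1.33 and 1.38 at their starts. EIF2D also had 2.14 inside the gene, 740 bp past the end of RASSF5. EIF1AD had 1.07 at a start shared with BANF1.

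The 4 remaining symbols were EIF2AP4, EIF4A1P3, EIF5AP3 and EIF2B5-IT1, with log2 folds of 0.75, 0.81, 1.06 and 0.84. None of their sites lay within 1 kb of the listed start. The sites paired with EIF2AP4, EIF4A1P3 and EIF5AP3 lay outside these pseudogenes, 4076, 8159 and 1927 bp from the nearest boundary. That of EIF5AP3 was inside MARK4 and PPP1R37.

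**Figure D5:**
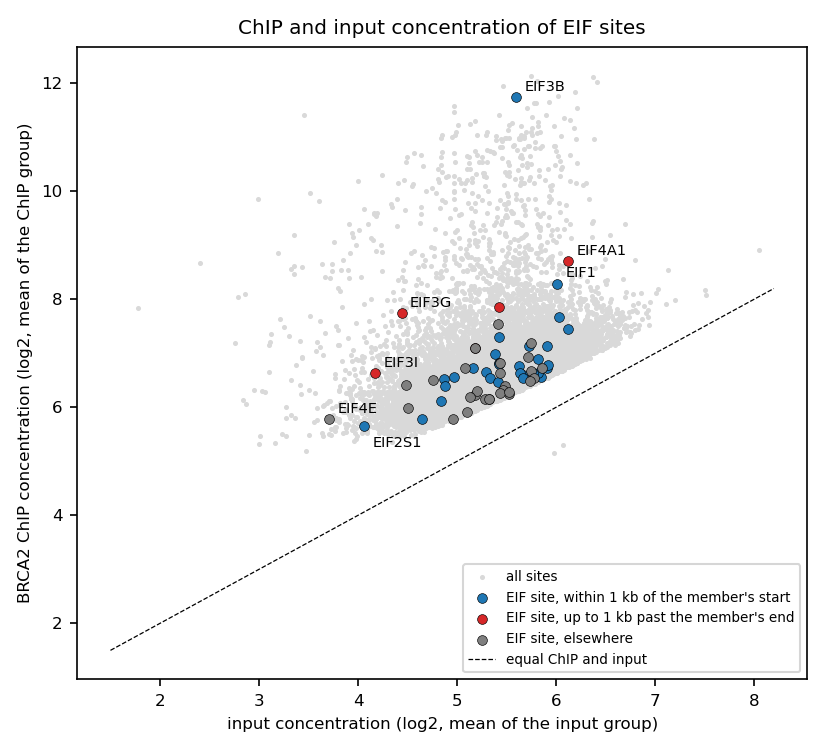
BRCA2 ChIP concentration (y axis) against input concentration (x axis), both log2 group means, for all sites (grey) and for the pairings of EIF genes, coloured by position; the dashed line marks equal values. EIF3B stands at 11.74 over an input of 5.60, and EIF4E and EIF2S1 have the lowest inputs of the family, at 3.71 and 4.06.

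Some promoter sites of the family were shared with a gene on the other strand. Of the 30 promoter sites, 10 (33.3%) were also promoter sites of an opposite-strand gene, beside 26.0% of all promoter sites. Pairs with a coding partner included EIF3B with SNX8, EIF2B4 with SNX17 (1.88), EIF3L with ANKRD54, EIF1AD with BANF1, EIF3H with UTP23, EIF2B1 with GTF2H3, a subunit of TFIIH, and EIF3I with TMEM234. The median log2 fold was 1.07 at the 10 and 1.36 at the other 20, while over all promoter sites it was 1.26 in both classes. Site centres lay between -969 and 746 bp of the member's start (negative is upstream), with a median of -17 bp, and 13 of 30 were downstream. Over all coding promoter pairings the median was 8 bp and 50.9% were downstream.

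Regulators and later steps of translation were set beside the initiation factors from gene lists. Of 13 genes around the eIF2 kinases and phosphatase, 10 had a site and 7 a promoter site. EIF2AK3, the kinase PERK of the endoplasmic reticulum, had 3.22 at a site 183 bp upstream, EIF2AK4, the amino acid sensor GCN2, had 1.71, and EIF2AK1 had 0.82. ATF4, the transcription factor translated when eIF2 is phosphorylated, had 2.81 over its end, and PPP1R15A, the phosphatase subunit GADD34, had 2.56 at 410 bp past its end. Of 25 other initiation and cap regulators, 16 had a site and 11 a promoter site, with RPTOR at 3.59 deep inside the gene and PDCD4, an inhibitor of eIF4A, at 0.65.

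Of 18 elongation genes 14 had a site and 9 a promoter site. EEF1D, an exchange factor subunit, had 6.14 inside the gene, 2231 bp from its start, and DOHH, which completes the hypusine of eIF5A, had 5.18 over its start, while DHPS, which begins it, had 1.48. EEF1A1 and EEF2 had 3.72 and 2.99 at sites 932 and 435 bp past their ends. Of 9 termination and recycling genes 6 had a site and 3 a promoter site, with ETF1 at 1.45. Mitochondrial translation factors had a promoter site at 10 of 12, led by MTIF2, the mitochondrial relative of eIF5B, at 2.18. Taking each gene's highest fold, the median was 1.44 in the initiation factor family, 1.72, 1.38, 1.62, 1.28 and 1.25 in these lists in the order given, and 1.31 over all protein-coding genes with a site.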

How the data were processed

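Per the labels, chromatin of log-phase hTert-HME1 cells was crosslinked, sonicated and precipitated with an antibody to BRCA2, and 2 ChIP and 2 input libraries were sequenced. Per the submitters' processing notes, the build was hg19 and the tools included Bowtie 1.1.1, MACS2, DiffBind, Picard 1.92, cutadapt 1.8.1 and SAMtools, in no stated order, and the series' design text states that DiffBind compared the groups. Per the file headers, the authors' deposited table gives log2 group concentrations, a log2 fold and an FDR (q-value) for each site. The fold equalled the difference of the concentrations within 0.01. Deposited starts count from 0 and are given from 1. Depth per library is unknown here.

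Sites were classed by their deposited position, and edges and centres were computed from the listed distance (Python 3.11.15, pandas 2.3.3, scipy 1.17.1). These steps recovered known positions in a made-up table. That table was built with the same distance rule, so it could not check that the deposited distances follow the rule. Rows were matched to 20056 RefSeq coding genes (GRCh38.p14, names and gene order only) by Entrez ID, symbol or synonym, and 13849 of the 23317 rows matched. Motifs were sought on both strands of RefSeq promoters. The genes, lists and motifs were chosen with earlier results of these data known. Every gene of the symbol rule could be named, and full positions go to strong, extreme or shared sites. No test was run beyond the authors' own FDR. Alternatives covered FDR, fold, window, distance, chromosomes, gene set and pairing.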

Additional observations from a re-analysis of the deposited data

How the results depend on the processing

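Of 46 alternative values, 33 were classed as the same as the reported one and 13 as moved. None could change sign, since all were counts, shares or medians of positive folds. At an FDR under 0.001 the family kept 31 sites (61 in all), 42.3% of its coding genes with a site and 32.7% with a promoter site (26.1% and 13.2% of all protein-coding genes). The median log2 fold was then 1.60, and 1.42 at an FDR under 0.01. A rise of the median follows from the cut, since sites with small folds tend to fail it. No such median was taken over all sites. At a log2 fold of at least 1 there were 40 sites, 53.8% with a site and 42.3% with a promoter site (34.8% and 17.9% of all protein-coding genes). The choice of pairing bears on which gene a site is given to. Taking for each gene the site nearest to its start left 4 genes at a log2 fold of 2 or more, where 8 had one. The same count was not made over all protein-coding genes. Another rule, chosen after seeing the data, kept a pairing only where the member had the nearest start of the genes listed for that site. It left 36 sites, 50% of genes with a site (32.8% of all protein-coding genes), 69.4% of sites at promoters and 2 genes at a log2 fold of 2 or more. These 2 were EIF1 and EIF2D, and the EIF3B site was dropped because SNX8 had the nearer start. Choosing by start distance itself favours promoter sites. Neither the share of sites at promoters nor the count of such genes was taken over all genes. The rule replaced a planned use of a nearest-start mark, which could not be run because the table has no such column. No paired analysis was possible because the table holds group means, and for the same reason no replicate could be left out. Depth per library is unknown, so what it limits cannot be stated.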
